A study of Ovis aries with 2 samples.

Results

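The nuclear-encoded genes of the mitochondrial respiratory chain were described here in single cells of sheep testis. The set holds every gene symbol that starts with NDUF, UQCR or ATP5, every COX symbol numbered 4 to 8, the 4 SDH symbols and CYC1. In the deposited gene list 60 of 27054 genes met this rule. By the start of the symbol, 27 members were counted in complex I (NDUF, with NDUFA4L2 included) and 5 as assembly factors of complex I (NDUFAF). Complex II had 2 members, complex III 6, complex IV 10 and complex V 10, with the regulator ATP5IF1 counted in complex V. A further 10636 genes of the list carry an identifier and no symbol, so subunits among them were not analysed here; SDHA, SDHD, NDUFA4, COX7A2, COX7C and ATP5F1A matched no symbol.

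The study compared testis of sheep (Ovis aries) at 8 months in 2 droplet libraries, 1 labelled Control and 1 labelled ZEA0.75. ZEA commonly stands for zearalenone, an oestrogen-like toxin made by Fusarium moulds; the labels give neither this name, nor the unit of 0.75, nor whether an animal or a piece of tissue was exposed. The design text names damage to the testis by ZEA as the subject. The sources used here state neither the breed, nor the number of animals, nor any treatment common to both groups.

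The respiratory chain passes electrons from NADH (complex I) and succinate (complex II) through ubiquinol and complex III to cytochrome c and complex IV, and ATP synthase (complex V) uses the resulting proton gradient. Most subunits are encoded in the nucleus, and 13 are encoded by mitochondrial DNA. Several nuclear subunits exist as paralogs with tissue preferences, and the testis is known for its own forms, such as COX6B2 of complex IV and PDHA2 of pyruvate dehydrogenase. Developing sperm reduce their cytoplasm while they elongate and keep their mitochondria around the upper part of the tail.

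The control library held 7030 barcodes with 53044981 UMIs (unique molecular identifiers, 1 per captured RNA molecule) and the ZEA0.75 library 8809 barcodes with 22148456. After filters 6811 and 8804 cells were kept, with medians of 4121 and 1405.5 UMIs. Of the 24 clusters of cells, 13 were named from marker genes. In the control library these gave 1013 late spermatocyte-like cells (cluster 5), 1316 round spermatid-like cells (nearly all in clusters 6 and 4) and 1643 elongating spermatid-like cells (nearly all in clusters 2 and 1). In the ZEA0.75 library they gave 1020 round spermatid-like cells (1018 in cluster 15), 1029 elongating spermatid-like cells (995 in cluster 19), 2256 endothelial-like, 466 peritubular myoid-like, 302 perivascular-like, 281 stromal fibroblast-like and 172 leukocyte-like cells. The control library had fewer than 50 cells in each somatic class and the ZEA0.75 library had fewer than 50 late spermatocyte-like cells, so those classes could be described in 1 library only, and a cluster of nearly 1 library may be that library and not a type. The labelled tissue was checked with Sertoli cell markers: FSHR had 14 UMIs in the control and 0 in the ZEA0.75 library (which allows up to 0.135 UMIs in 1000000), SOX9 had 7 and 14, and no cluster was named Sertoli-like. With called doublets kept, however, 117 control cells formed a cluster that was named Sertoli-like, led by DEFB123, PNMT, AARD and CITED1. The 2 libraries shared 15 barcodes.

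Levels are given as CPM, the UMIs of a gene divided by all UMIs of a class of cells and scaled to 1000000, with exact 95% Poisson intervals. Ratios are on the log2 scale of CPM with exact conditional 95% intervals. The intervals cover counting error only: cells of a class come from 1 library, each group has 1 library, and no difference has a replicate check or a test. CPM is a share of a class's RNA and not an amount per cell. The method counts 3' ends and so has no length term, but genes can differ in capture, so levels of different genes are set side by side only as UMIs found.

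Among the named germ cell classes of the control, respiratory chain genes took their largest share of RNA in late spermatocyte-like cells and smaller shares at each later stage. Their sum was 25608 CPM (interval 25516 to 25701) in late spermatocyte-like cells, 17513 CPM (interval 17453.5 to 17572) in round and 9869 CPM (interval 9816 to 9921) in elongating spermatid-like cells. Ordered by TNP1, a transition protein gene that rises as spermatids mature, the clusters gave 19415 (cluster 6), 16008 (cluster 4), 10136.5 (cluster 2) and 8465 CPM (cluster 1), against TNP1 levels of 392, 871, 2185 and 2307 CPM. The intervals of neighbouring clusters in this order did not overlap. In UMIs per cell the sum was 292 in late spermatocyte-like, 255 in round and 82.8 in elongating spermatid-like cells. Median depths of these classes were 10032, 13463.5 and 7084 UMIs. Within the elongating class the median was 11848 UMIs in cluster 2 and 2397 in cluster 1. The part of depth in the sums per cell was not tested. An unnamed control cluster of 269 cells (cluster 10) gave 23620.2 CPM (interval 23436 to 23806). Its 10 leading genes held the germ cell genes H1-6 and TEX101 beside the 4 genes that lead the Sertoli-like cluster named above, and it had 12 of the 14 FSHR UMIs and all 7 Sertoli markers (70.7 CPM, against 1.99 CPM in late spermatocyte-like cells). It also held all 8 spermatogonia markers (177 CPM) and all 9 early spermatocyte markers (2510 CPM, against 1033 CPM in late spermatocyte-like cells). Because it held markers of both germ and Sertoli cells, this cluster was not taken as a germ cell stage.

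The mitochondrially encoded partners of these genes did not follow the same course. Their sum was 4262 CPM (interval 4224 to 4299) in late spermatocyte-like cells, 275 CPM (interval 268 to 283) in round and 285 CPM (interval 276 to 294) in elongating spermatid-like cells. For each mitochondrially encoded UMI there were 6.01 nuclear-encoded ones in late spermatocyte-like, 63.6 in round and 34.7 in elongating spermatid-like cells. Cells with over 20% mitochondrially encoded UMIs had been left out.

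**Figure D1:**
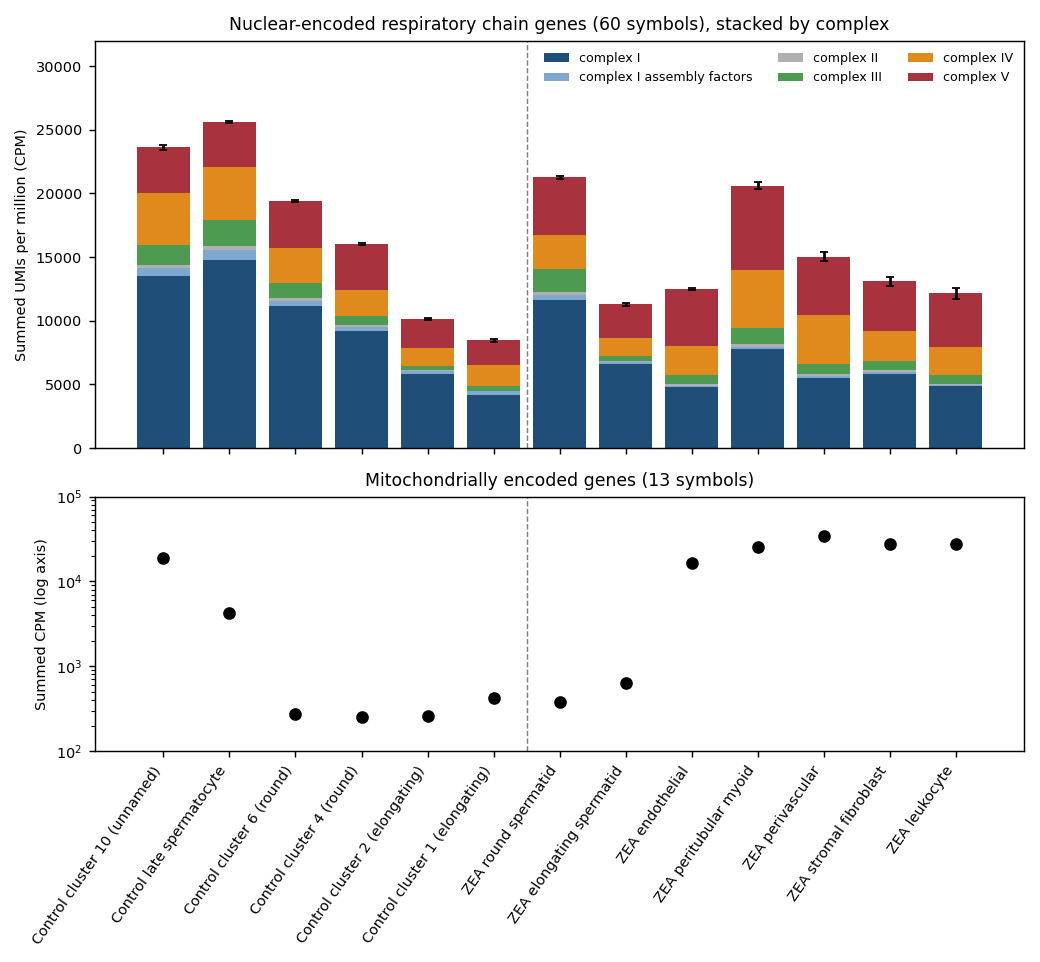
Summed CPM of the 60 nuclear-encoded genes, stacked by complex (upper panel, linear axis), and of the 13 mitochondrially encoded genes (lower panel, log axis), for 6 control clusters or classes left of the dashed line and 7 classes of the ZEA0.75 library right of it; error bars are 95% Poisson intervals. The upper bars descend from 25608 CPM in late spermatocyte-like cells to 8465 CPM in cluster 1, while the lower points fall to 254 to 427 CPM in the 4 spermatid clusters of the control library.

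From late spermatocyte-like to round spermatid-like cells, 24 of the 53 members that reached 50 UMIs over the pair of classes were at least 2-fold lower and 2 were at least 2-fold higher. Over all 9673 genes entered, 36.8% were 2-fold lower and 32.2% higher. The median log2 ratio was -0.86 over members and -0.42 over all genes. From round to elongating spermatid-like cells of the control library 25 of 51 members were 2-fold lower and 0 higher, beside 31.6% lower and 9.97% higher over 9254 genes, with medians of -0.87 and -0.52. Across the whole span, elongating against late spermatocyte-like cells, 40 of 53 members were 2-fold lower and 1 was higher, beside 49.9% and 28.9% of 9195 genes, with medians of -2.08 and -0.99. Scaled to the median of all gene ratios, the step from round to elongating cells gave 8 members lower and 1 higher, beside 17.1% and 17.6% of all genes. By complex, those lower across the whole span were 19 of 26 members of complex I, 4 of 4 assembly factors, 1 of 1 of complex II, 4 of 6 of complex III, 6 of 7 of complex IV and 6 of 9 of complex V. The 7 members that did not enter were ATP5MC2, COX4I2, COX6A2, COX7A1, NDUFA4L2, NDUFAF6 and SDHC. Of the 54 members with at least 50 UMIs in the named control germ clusters together, 44 were highest in late spermatocyte-like cells, as were 47.6% of 10321 genes.

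Complex I oxidises NADH and is the largest complex of the chain. Its gene with the most UMIs in every control germ cluster was NDUFB2 (ENSOARG00000013450), an accessory subunit of the membrane arm. NDUFB2 was at 5678 CPM (interval 5634 to 5721) in late spermatocyte-like, 4558 in round and 2139.5 CPM in elongating spermatid-like cells of the control library, and at 4956 and 2889 CPM in round and elongating spermatid-like cells of the ZEA0.75 library. It made up 22.2% of all member UMIs in late spermatocyte-like cells and 26.0% in round spermatid-like cells. NDUFB4, another membrane arm subunit, took 906, 602 and 408 CPM over the 3 control stages, and NDUFB9 took 564, 742 and 515 CPM. NDUFB9 thus was highest in round spermatid-like cells, by less than 2-fold.

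Several genes of the matrix arm, where NADH is oxidised, were among the members with the lowest ratios of round to late spermatocyte-like cells. NDUFV3, an accessory subunit of the NADH-binding module, went from 26.0 CPM (interval 23.1 to 29.1) to 1.82 CPM (interval 1.27 to 2.54), a log2 ratio of -3.83 (interval -4.38 to -3.33). NDUFS1, the core subunit that holds several iron-sulfur clusters, went from 26.4 to 5.26 and then to 1.52 CPM in elongating cells, a log2 ratio over the whole span of -4.12 (interval -4.83 to -3.48). NDUFS4, an accessory subunit needed for stable assembly of that arm, went from 343 to 76.1 to 23.5 CPM (log2 ratio -3.87, interval -4.04 to -3.70). NDUFA10, of the membrane arm, went from 75.6 to 13.3 CPM (log2 ratio -2.51, interval -2.71 to -2.30). None of these members had intervals that overlapped between late spermatocyte-like and round spermatid-like cells. They were picked for their low ratios, so this separation follows from the choice.

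At the later step other genes had the lowest ratios. NDUFAB1, the mitochondrial acyl carrier protein that is also a complex I subunit, went from 326 to 67.8 CPM between round and elongating spermatid-like cells (log2 ratio -2.26, interval -2.36 to -2.16). NDUFB5, of the membrane arm, went from 219.7 to 60.5 CPM (log2 ratio -1.86, interval -1.97 to -1.75). A few complex I genes had late levels as high as or higher than in round cells, and were picked out after their values were seen. NDUFB10 was at 133, 165 and 211 CPM over the 3 stages. NDUFB7 was at 338 CPM in cluster 4, 367 in cluster 2 and 657 (624 to 692) in cluster 1. NDUFS8, a core iron-sulfur subunit, was at 59.7, 63.6 and 119 CPM in the same clusters.

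The 7 complex I members that stayed within 2-fold over the whole span were NDUFA3, NDUFB10, NDUFB6, NDUFB7, NDUFB9, NDUFS8 and NDUFV1, with log2 ratios from -0.94 to 0.66. After NDUFB2, NDUFA6 and NDUFS3 had the highest levels of the complex in late spermatocyte-like cells, NDUFA6 with 1142, 374 and 160.0 CPM over the 3 control stages and NDUFS3, a core subunit of the matrix arm, with 909.9, 578 and 215 CPM. The 5 assembly factors of complex I were led by NDUFAF3, which was at 708, 322 and 227 CPM over the 3 control stages. NDUFAF5 took 80.8, 31.3 and 17.1 CPM. NDUFAF7 reached 5.63, NDUFAF1 5.89 and NDUFAF6 0.520 CPM in late spermatocyte-like cells. Of the 4 assembly factors that entered the comparison of elongating with late spermatocyte-like cells, 4 were at least 2-fold lower.

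Complex II, which oxidises succinate and belongs to the citrate cycle as well, was represented by SDHB and SDHC. SDHB, its iron-sulfur subunit, was at 320.2, 200.04 and 117 CPM over the 3 control stages, and at 261 and 121 CPM in round and elongating spermatid-like cells of the ZEA0.75 library. SDHC, a membrane anchor, had 42 UMIs in the whole control library and 28 in the ZEA0.75 library, too few for a comparison between classes.

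Complex III passes electrons from ubiquinol to cytochrome c. Over all control cells its gene with the most UMIs was UQCRB (ENSOARG00000005495), a small subunit near the ubiquinone site. UQCRB was at 1502 CPM (interval 1479.7 to 1525) in late spermatocyte-like cells, 909 (889 to 929) in cluster 6, 535 (522 to 549) in cluster 4, 104 (98.3 to 110.1) in cluster 2 and 196 (178 to 215) in cluster 1. The level was lower in each cluster up to cluster 2 and higher again in the cluster highest in TNP1. The log2 ratio of elongating to round spermatid-like cells was -2.56 (interval -2.63 to -2.49), the lowest of the 51 members entered. UQCRC1, a core protein on the matrix side, moved far less, with 303, 176 and 162 CPM over the 3 stages, and was above UQCRB in elongating cells. UQCR10 went from 132 to 21.6 to 12.0 CPM and UQCRC2 from 17.4 to 3.86 to 2.98 CPM. CYC1, cytochrome c1 itself, was listed at 5.20 CPM in late spermatocyte-like cells, 8.76 in round and 3.85 in elongating spermatid-like cells.

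Complex IV, cytochrome c oxidase, hands the electrons to oxygen. COX4I1, the widely expressed form of its largest nuclear-encoded subunit, had the most UMIs, with 1804, 1169.7 and 647 CPM over the 3 control stages. COX5A and COX5B, on the matrix side of the complex, were each at least 2-fold lower at both steps. COX5B went from 323 to 115 to 46.1 CPM, and COX5A from 360.1 to 134 to 63.6 CPM.

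COX8A and COX6A1 moved in opposite directions at the step from late spermatocyte-like to round spermatid-like cells. COX8A (ENSOARG00000004138), the widely expressed form of the smallest subunit, went from 11.1 CPM (interval 9.26 to 13.2) to 88.7 CPM (interval 84.5 to 93.0), a log2 ratio of 3.0 (interval 2.74 to 3.27), and was at 99.0, 80.7, 45.4 and 30.4 CPM in clusters 6, 4, 2 and 1. COX6A1 (ENSOARG00000012290), the widely expressed form of a regulatory subunit, went from 87.7 CPM (interval 82.4 to 93.3) to 6.93 CPM (interval 5.80 to 8.22), a log2 ratio of -3.66 (interval -3.93 to -3.40). COX6A2, the form known from heart and skeletal muscle, had 2 UMIs in all control cells, so its UMIs did not make up the difference. COX8C and COX7B2, other symbols of testis forms, were not analysed here.

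The testis form COX6B2 (ENSOARG00000001452) took nearly all UMIs of the COX6B pair, whose product helps join complex IV monomers into a dimer. COX6B2 was at 1542 CPM in late spermatocyte-like, 815 in round and 622 in elongating spermatid-like cells, while the widely expressed COX6B1 was at 46.7, 23.7 and 5.51 CPM. COX6B2 made up 97.1% (interval 96.8 to 97.3) of the pair in late spermatocyte-like, 97.2% (interval 96.9 to 97.4) in round and 99.1% (interval 98.9 to 99.3) in elongating spermatid-like cells. In the ZEA0.75 library it made up 95.7% (interval 95.1 to 96.2) and 97.2% (interval 96.1 to 98.1) in round and elongating spermatid-like cells. The share was thus above 90% in these 5 classes, and was higher in elongating than in round spermatid-like cells of both libraries, with overlapping intervals in the ZEA0.75 library. Both genes were lower after that step in the control library, COX6B1 with a log2 ratio of -2.10 (interval -2.47 to -1.75) and COX6B2 with -0.39 (interval -0.43 to -0.35).

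In complex V, ATP synthase, the gene with the most UMIs over all control cells was ATP5IF1 (ENSOARG00000003022), which encodes a small inhibitor of ATP hydrolysis by the enzyme. It was at 905 CPM (interval 888 to 922) in late spermatocyte-like cells, 2062 (2032 to 2093) in cluster 6, 2269 (2241 to 2298) in cluster 4, 1020.1 (1002 to 1039) in cluster 2 and 287 (265 to 310.3) in cluster 1. ATP5IF1 and COX8A were the 2 members at least 2-fold higher in round than in late spermatocyte-like cells. ATP5IF1 made up 3.53% of member UMIs in late spermatocyte-like cells and 14.2% in cluster 4. The catalytic beta subunit ATP5F1B was lower in each later cluster, with 263, 171, 129, 69.3 and 34.9 CPM in the same clusters. ATP5PF, a subunit of the peripheral stalk, went from 1082 to 448 to 159 CPM over the 3 stages. ATP5MPL, a small membrane subunit also written ATP5MJ, was highest late, with 395, 494, 739.6 and 1154 (1109.9 to 1200.1) CPM in clusters 6, 4, 2 and 1.

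Subunit c, the proton-carrying ring of ATP synthase, is encoded by 3 nuclear genes whose mature proteins are the same. The 3 genes together gave 37.7 CPM in late spermatocyte-like, 20.8 in round and 9.0 in elongating spermatid-like cells. ATP5MC2 (ENSOARG00000016393) had few UMIs in these germ cells, 12 UMIs in late spermatocyte-like, 16 in round and 10 in elongating spermatid-like cells, or 2.76% (interval 1.43 to 4.77), 4.01% (interval 2.31 to 6.43) and 8.06% (interval 3.94 to 14.3) of the set. ATP5MC1 and ATP5MC3 split the rest, with 49.9% and 47.4% in late spermatocyte-like cells and 37.1% and 58.9% in round spermatid-like cells. The low total sits beside 1082 CPM of ATP5PF and 263 CPM of ATP5F1B in late spermatocyte-like cells. Genes without a symbol may include further copies, and near-identical copies can divide reads in counting, so the levels within the set are uncertain.

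**Figure D2:**
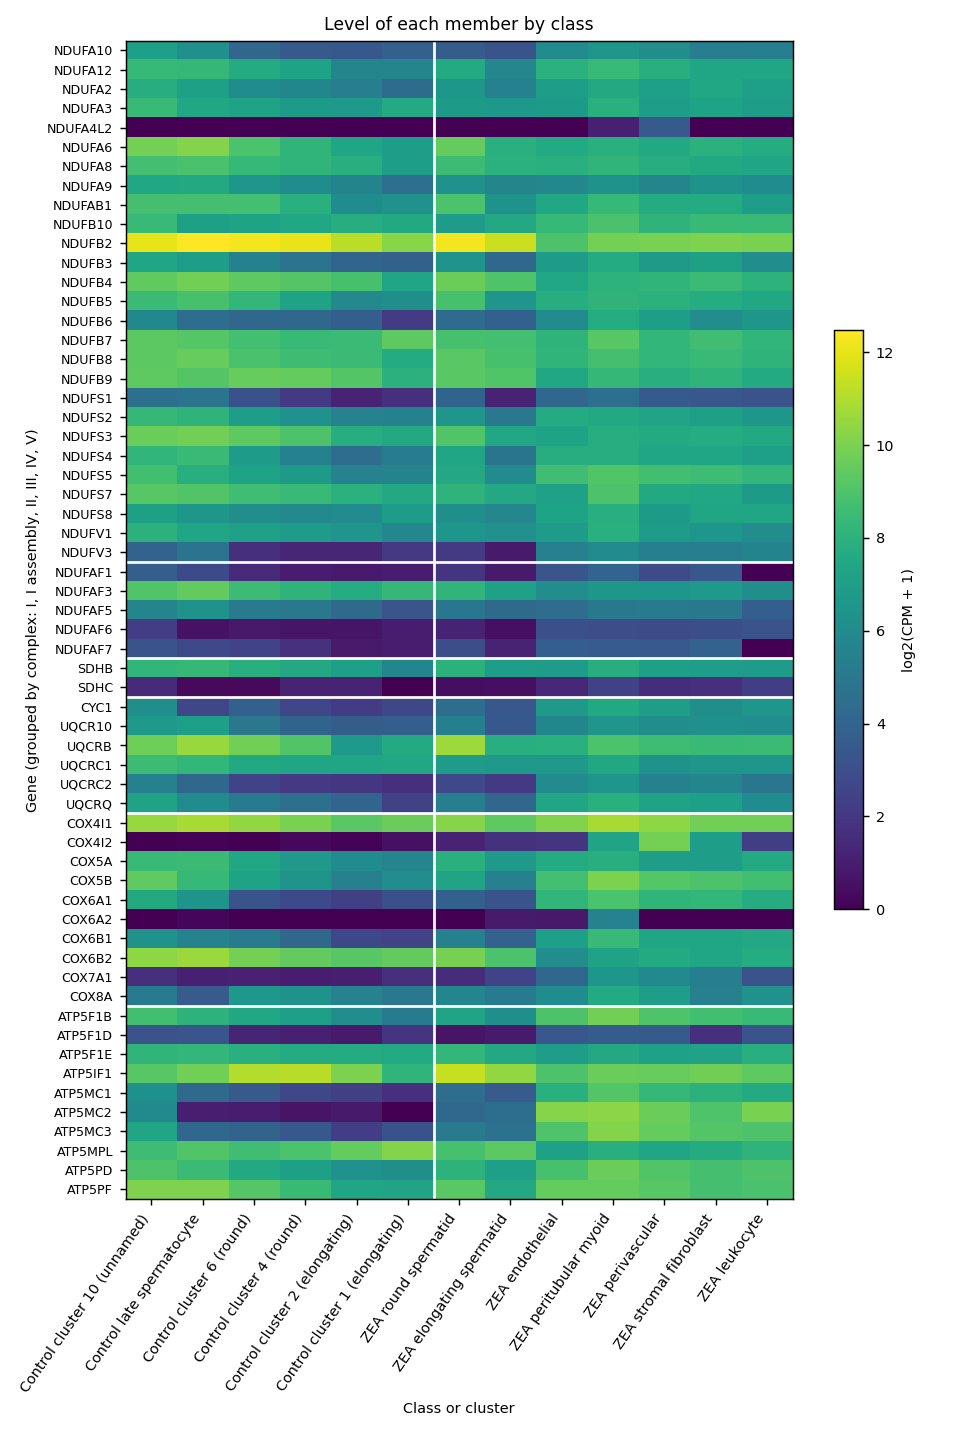
Level of each of the 60 genes (rows, grouped by complex) in 13 clusters or classes (columns), as log2(CPM + 1) on a colour scale; the white vertical line divides the control library (left) from the ZEA0.75 library (right). NDUFB2 is bright in all named germ columns, up to 5678 CPM, and the ATP5MC rows and COX6A1 are dark in spermatid columns and bright in somatic columns.

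The step from round to elongating spermatid-like cells could be described in both libraries, which share no sample. In the ZEA0.75 library 23 of 49 members were 2-fold lower in elongating cells and 0 were higher, beside 42.9% lower and 16.9% higher over 7107 genes. The median was -0.93 over members and -0.73 over all genes. Scaled to the median of all gene ratios, the counts were 10 lower and 3 higher, beside 25.6% and 26.7% of all genes. Of 48 members entered in both libraries, 46 had the same sign (95.8%), against 88.2% of 6997 genes, and 19 (39.6%) were 2-fold lower in both, beside 30.4% of those genes. Pearson's r of the 2 libraries' log2 ratios was 0.83 across these members and 0.87 across all genes, where genes are not independent replicates.

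UQCRB and NDUFAB1 had the lowest ratios among members with at least 200 UMIs in each library. UQCRB was at 700.4 and 119 CPM in round and elongating cells of the control and at 1587 and 228 CPM in the ZEA0.75 library, log2 ratios of -2.56 and -2.80. NDUFAB1 gave -2.26 and -2.54. NDUFS4 gave -1.69 and -2.49, and NDUFB3 gave -1.13 and -2.31. Against this trend, ATP5MPL was higher in elongating cells of both libraries, by 0.84 (interval 0.80 to 0.88) and 0.49 (interval 0.40 to 0.58) on the log2 scale, as was NDUFB10, by 0.36 and 0.67. NDUFB7 and NDUFS8 had opposite signs in the 2 libraries, with log2 ratios of 0.13 and -0.10 and of 0.16 and -0.47.

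**Figure D3:**
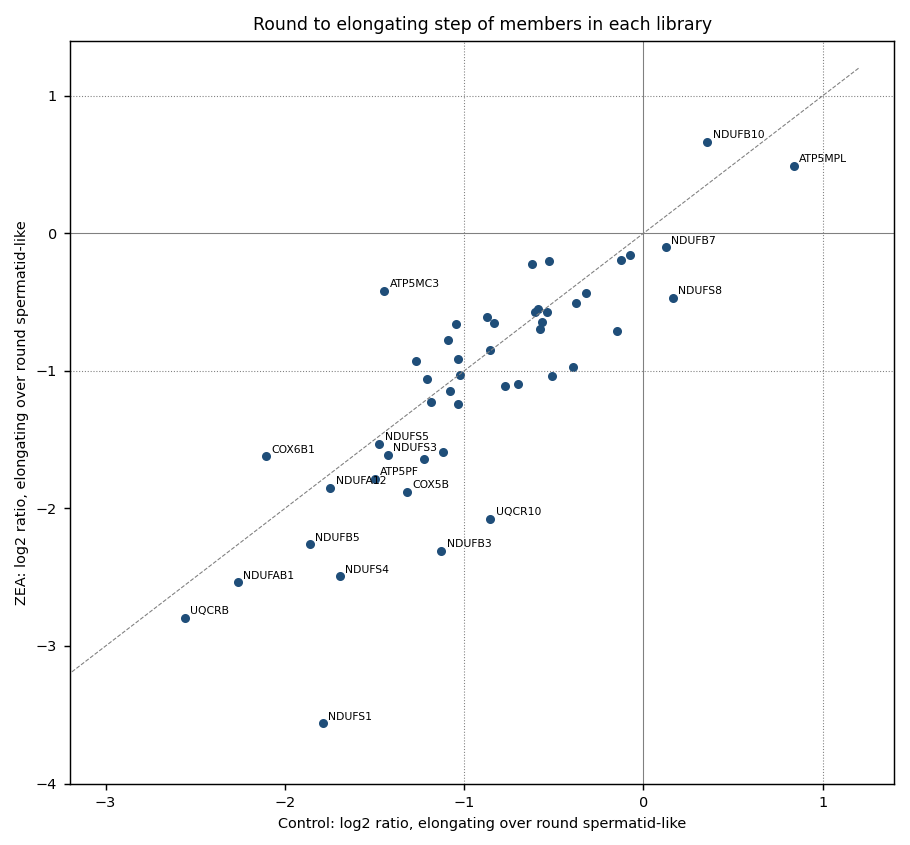
Log2 ratio of CPM in elongating over round spermatid-like cells for the 48 members entered in both libraries, control on the horizontal and ZEA0.75 on the vertical axis; dotted lines mark 2-fold, and the dashed line marks equal ratios. Of the points, 46 lie in the quadrants of equal sign, UQCRB sits at -2.56 and -2.80, and ATP5MPL and NDUFB10 lie above 0 on both axes.

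Somatic cells of the ZEA0.75 library carried a different mix of the same complexes. Summed levels were 12458 CPM (interval 12378 to 12538) in endothelial-like, 20610.3 CPM (interval 20312 to 20912) in peritubular myoid-like, 15020.3 in perivascular-like, 13091 in stromal fibroblast-like and 12155 CPM in leukocyte-like cells, a class that also held Leydig cell markers at 957 CPM and endothelial markers at 884 CPM, against 21280.2 CPM (interval 21158 to 21403) in round spermatid-like cells of that library. Mitochondrially encoded genes ranged from 16689.6 CPM in endothelial-like to 33924 CPM in perivascular-like cells, against 376 in round and 631 in elongating spermatid-like cells. There were 0.746 nuclear-encoded UMIs per mitochondrially encoded UMI in endothelial-like cells and 56.6 in round spermatid-like cells. Of 57 members with at least 50 UMIs over these 7 classes, 34 were highest in peritubular myoid-like cells, beside 9.52% of 10759 genes, 16 in round spermatid-like cells, beside 28.2%, and 7 in the other classes.

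Spermatid RNA was found in all somatic classes of this library. Transcripts of the spermatid genes HMGB4 and TNP1, at 8884 and 1903 CPM in elongating spermatid-like cells, were found in endothelial-like cells at 8.13% and 9.58% of those levels and in perivascular-like cells at 19.5% and 22.0%. ACRV1, an acrosomal gene, was at 2.56% and 6.13% of its level in round spermatid-like cells. COX6B2 was at 7.29% of its level in round spermatid-like cells in endothelial-like cells, 15.3% in myoid-like and 20.9% in perivascular-like cells, and NDUFB2 at 10.1%, 18.9% and 20.2%. Other spermatid genes spread more widely, given as percentages of their levels in elongating spermatid-like cells. In endothelial-like, myoid-like and perivascular-like cells PRM3 was at 5.58%, 10.2% and 11.7%, and ODF1 at 18.1%, 25.7% and 40.9%. GAPDHS was at 11.1%, 18.5% and 23.8%. The COX6B2 and NDUFB2 percentages lie near those of HMGB4 and TNP1, above those of ACRV1 and PRM3, and below those of ODF1. Nearness to spermatid genes thus depends on which genes are chosen. No somatic expression of COX6B2 or NDUFB2 is read from these levels, and the part of spermatid RNA in them was not tested. Median depths were 2426.5 UMIs in endothelial-like, 1498 in perivascular-like and 2406.5 in round spermatid-like cells.

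In the comparison of germ with somatic cells, 21 of 56 members were 2-fold lower and 15 were 2-fold higher in round spermatid-like than in endothelial-like cells, beside 38.9% and 38.1% of 9767 genes. The median was -0.33 over members and 0.04 over all genes. The lowest ratios belonged to ATP5MC2, COX6A1, ATP5MC3 and NDUFV3. ATP5MC2 was at 1194 CPM (interval 1169 to 1219) in endothelial-like and 17.2 CPM (interval 13.8 to 21.0) in round spermatid-like cells, a log2 ratio of -6.12 (interval -6.43 to -5.83). COX6A1 was at 297 and 13.7 CPM (log2 ratio -4.44, interval -4.80 to -4.11), ATP5MC3 at 519.6 and 32.7 (log2 ratio -3.99), and NDUFV3 at 42.5 and 3.32 (log2 ratio -3.68). The highest ratios belonged to COX6B2 (log2 ratio 3.78, interval 3.65 to 3.91), NDUFB2 (log2 ratio 3.31), UQCRB (log2 ratio 2.73) and ATP5IF1 (log2 ratio 2.42).

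The 2 core proteins of complex III differed in the same comparison. UQCRC1 was at 105 (98.1 to 113) in endothelial-like and 118 (109 to 128) CPM in round spermatid-like cells. UQCRC2 was at 63.1 (57.5 to 69.1) and 5.72 (3.89 to 8.12) CPM, a log2 ratio of -3.46 (interval -4.04 to -2.94). In late spermatocyte-like cells of the control library UQCRC1 was at 303 and UQCRC2 at 17.4 CPM. In ATP synthase, ATP5F1B was at 501 CPM in endothelial-like and 154 in round spermatid-like cells (log2 ratio -1.70), while ATP5IF1 was at 500.02 and 2671 CPM (log2 ratio 2.42, interval 2.37 to 2.47).

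Peritubular myoid cells contract to move sperm along the tubules. No marker list covered smooth muscle of vessels, so such cells could not be told apart from the myoid-like class. That class held all 8 perivascular markers, at 2252 CPM against 37.4 CPM in endothelial-like cells. In respiratory chain genes, peritubular myoid-like cells stood above endothelial-like cells. In them 14 of 57 members were 2-fold higher and 0 lower, beside 11.9% and 17.9% of 8470 genes, with medians of 0.67 over members and 0.01 over all genes. Complex IV gave 6 of those 14, from 9 members entered. COX7A1, the form of a small subunit known from heart and skeletal muscle, was at 93.9 CPM (interval 74.8 to 116) in myoid-like cells, 61.3 (41.1 to 88.0) in perivascular-like, 40.0 (23.3 to 64.0) in stromal fibroblast-like and 17.6 (14.7 to 20.8) in endothelial-like cells. The first 3 of these intervals overlap with a neighbour in the order, and that of endothelial-like cells lies below them. NDUFS7, a core iron-sulfur subunit, was at 515 against 141 CPM (log2 ratio 1.87, interval 1.71 to 2.03), NDUFB6 at 211 against 63.0 (log2 ratio 1.74), and COX8A at 194 against 65.8 (log2 ratio 1.56). COX6A2, the muscle form of its pair, had 40 of its 55 UMIs in the ZEA0.75 library in these cells, or 8.39% (interval 6.06 to 11.2) of the pair, against 0.270% (interval 0.0991 to 0.586) in endothelial-like cells. UQCRB and COX6B2 were also among the 14, and elongating spermatid markers summed to 3240.4 CPM in myoid-like and 1735 CPM in endothelial-like cells; their part in these ratios was not tested. Outside the set, SLC25A4, the muscle form of the ADP/ATP carrier, was at 749 CPM in myoid-like and 68.6 CPM in endothelial-like cells (log2 ratio 3.45, interval 3.28 to 3.62).

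COX4I2, the paralog of COX4I1 known from lung and from responses to low oxygen, was highest in perivascular-like cells. COX4I2 (ENSOARG00000001167) was at 939 CPM (interval 853 to 1030.1) in perivascular-like, 156 (131 to 185) in myoid-like, 122 (91.3 to 160.4) in stromal fibroblast-like and 2.68 (1.64 to 4.14) in endothelial-like cells. Its share of the pair was 41.5% (interval 38.6 to 44.6), 7.95% (interval 6.72 to 9.32), 12.0% (interval 9.08 to 15.4) and 0.243% (interval 0.148 to 0.374) in that order, and the whole control library held 8 of its UMIs against 59729 of COX4I1. Levels in myoid-like and stromal fibroblast-like cells did not differ beyond their intervals. COX4I2 was among the 10 leading genes of the perivascular-like cluster although it was left out of the genes used for clustering. COX4I1 was at 1321 CPM in perivascular-like and 1102 in endothelial-like cells, so the pair summed to 2259.9 and 1105 CPM. Perivascular markers summed to 4790.4 CPM in perivascular-like, 2252 in myoid-like and 127 CPM in stromal fibroblast-like cells. The perivascular-like class also held peritubular myoid markers at 5811.5 CPM and stromal fibroblast markers at 3338 CPM, with 8 of 8 found in each list. Doublets may remain in this library, and their part in the lower COX4I2 levels was not tested. NDUFA4L2, a paralog of NDUFA4 and also known from low oxygen, had 5 of its 6 UMIs in the ZEA0.75 library in perivascular-like cells, a level of 10.6 (3.43 to 24.7) CPM.

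Apart from COX4I2, few members separated perivascular-like from endothelial-like cells. In that comparison 4 of 57 members were 2-fold higher and 0 lower, beside 14.9% and 15% of 8302 genes, with medians of 0.14 and 0.05. The other three were COX7A1 (log2 ratio 1.80), COX6B2 (log2 ratio 1.52) and NDUFB2 (log2 ratio 1.00), of which COX6B2 and NDUFB2 moved with the spermatid genes HMGB4 and TNP1 given above.

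**Figure D4:**
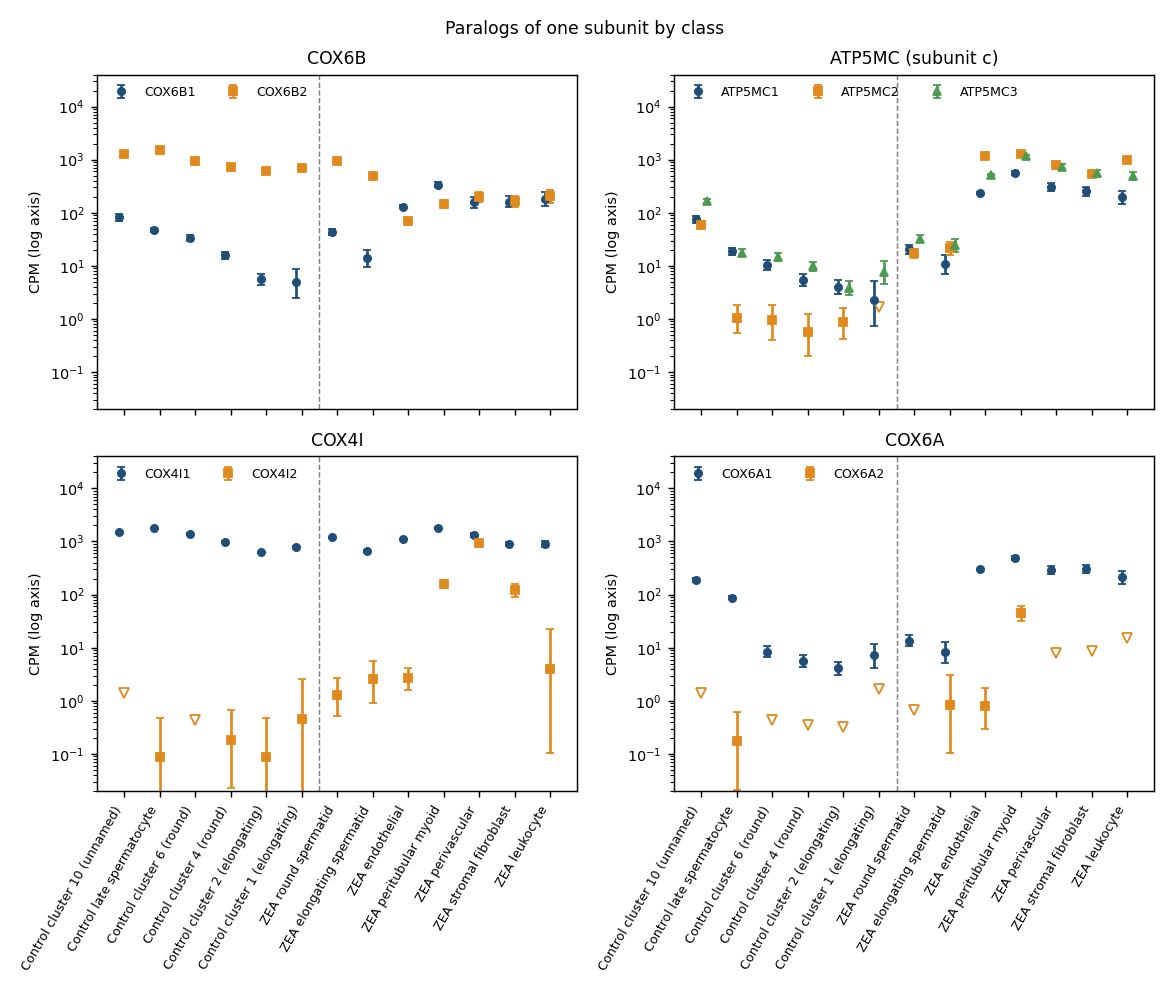
CPM (log axis) of the paralogs of 4 subunits in control clusters or classes (left of the dashed line) and ZEA0.75 classes (right); error bars are 95% Poisson intervals, and an open triangle marks the upper interval bound of a gene with 0 UMIs. COX6B2 lies above COX6B1 in all named germ columns, ATP5MC2 goes from 1.04 CPM in late spermatocyte-like to 1194 CPM in endothelial-like cells, and COX4I2 reaches 939 CPM in perivascular-like cells.

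Genes of the same pathway outside the set were counted in the same comparisons, with the shares of all genes given above as their background. All 11 mitochondrially encoded genes entered were 2-fold lower in round than in late spermatocyte-like cells, with a median of -3.89, and 0 of 10 passed 2-fold between elongating and round cells of the control library. COX1, the catalytic subunit of complex IV, was at 950.4, 40.7 and 43.1 CPM over the 3 control stages. In the ZEA0.75 library all 12 entered were lower in round spermatid-like than in endothelial-like cells, with a median of -5.45. Assembly factors outside the set gave 9 of 19 lower and 1 higher between round and late spermatocyte-like cells. Among them TMEM70, needed for ATP synthase assembly, had a log2 ratio of -4.58 (interval -5.44 to -3.83) and COX20, a chaperone of complex IV, -3.51 (interval -3.81 to -3.23).

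Of the citrate cycle, which feeds complex I with NADH, 7 of 11 genes were 2-fold lower and 3 higher in round than in late spermatocyte-like cells. In round spermatid-like against endothelial-like cells of the ZEA0.75 library 11 of 14 were lower and 1 higher, with a median of -2.47. IDH2 was at 75.7 CPM in endothelial-like and 0.923 in round spermatid-like cells, and MDH2 at 102 and 8.30. PDHA2, the testis form of the pyruvate dehydrogenase alpha subunit, was at 161, 105 and 98.1 CPM over the 3 control stages. Of the carriers and porins, 4 of 6 were lower and 2 higher in round spermatid-like than in endothelial-like cells. SLC25A31, the germ cell form of the ADP/ATP carrier, was at 26.4 CPM in late spermatocyte-like and 3.80 in round spermatid-like cells of the control library (log2 ratio -2.79, interval -3.18 to -2.42).

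The list of mitochondrial biogenesis went the other way in part, with 3 of 5 higher and 2 lower in round than in late spermatocyte-like cells. TFAM, which packages and transcribes mitochondrial DNA, was at 183, 1082 and 1992 CPM over the 3 control stages, and at 909.8 and 2763 CPM in round and elongating spermatid-like cells of the ZEA0.75 library. PPARGC1A, a coactivator of mitochondrial genes, was at 0.954, 10.2 and 16.6 CPM over the same control stages, and GABPA, a transcription factor of many respiratory chain genes, at 13.1, 2.08 and 1.02.

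Between the libraries, round and elongating spermatid-like cells were the named germ cell classes with at least 50 cells in both. Unnamed cluster 8, with late spermatocyte as its best list, held 652 control and 66 ZEA0.75 cells and was not compared. The comparison asks whether respiratory chain genes took a different share of spermatid RNA in the ZEA0.75 library. Their sum was 17513 CPM in control and 21280.2 in ZEA0.75 round spermatid-like cells, a log2 ratio of 0.28 (interval 0.27 to 0.29), and 9869 and 11293 CPM in elongating spermatid-like cells, a log2 ratio of 0.19 (interval 0.18 to 0.21). The median log2 ratio of all genes was 0.30 in round and 0.19 in elongating cells. The median over members was 0.44 and 0.20. Against control cluster 6 alone, the round spermatid-like cluster lowest in TNP1, the ratio of the sums was 0.13; that setting was added after the data were seen. Over all alternatives run the ratio ranged from 0.13 to 0.30 in round and from 0.13 to 0.32 in elongating cells.

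In round spermatid-like cells 10 of 52 members were 2-fold higher in the ZEA0.75 library and 0 lower, beside 21.2% and 10.5% of 9069 genes. Scaled to the median of gene ratios there were 6 higher and 1 lower, beside 13.1% and 15.4% of all genes, and against control cluster 6 alone 4 of 51 were higher and 0 lower, beside 15.4% of all genes past 2-fold in either direction. With every cell thinned to 500 UMIs, 5 of 37 were higher and 1 lower, beside 23.5% past 2-fold in either direction. UQCRB was at 700.4 CPM (interval 689 to 712) in control and 1587 CPM (interval 1553 to 1620.5) in ZEA0.75 round spermatid-like cells (log2 ratio 1.18, interval 1.14 to 1.22), but within the control class it was at 909 CPM in cluster 6 and 535 in cluster 4. NDUFS4 was at 76.1 and 159 CPM (log2 ratio 1.07, interval 0.94 to 1.19), with 118 in control cluster 6. NDUFB3 was at 33.8 and 87.8 CPM (log2 ratio 1.38) and NDUFB5 at 219.7 and 451 CPM (log2 ratio 1.04, interval 0.97 to 1.11).

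The stage markers of the 2 round spermatid-like classes differed too. Markers of late spermatocytes summed to 876 CPM in control and 1441 CPM in ZEA0.75 round spermatid-like cells, with 8 of 9 found in each and OVOL2 at 0 in both. Markers of elongating spermatids summed to 12610.4 and 7223 CPM and TNP1 to 659 and 399.8 CPM. UQCRB and NDUFS4, which fall from late spermatocyte-like to elongating cells, were higher in the class with more late spermatocyte marker RNA. UQCRC1 and NDUFAF3 also fall over those stages but were lower in that class. The part of stage in these ratios was not tested.

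The remaining members higher in ZEA0.75 round spermatid-like cells include genes with high levels in somatic cells. ATP5MC2 was at 0.834 CPM (interval 0.477 to 1.35) in control and 17.2 CPM (interval 13.8 to 21.0) in ZEA0.75 cells (log2 ratio 4.36, interval 3.59 to 5.23), ATP5MC1 at 7.71 and 20.7 (log2 ratio 1.42), ATP5MC3 at 12.2 and 32.7 (log2 ratio 1.41) and CYC1 at 8.76 and 21.8 CPM (log2 ratio 1.31). The ATP5MC2 level was 1.44% of that in endothelial-like cells of the same library. In the same cells the endothelial genes PECAM1, VWF, CDH5, FLT1 and TIE1 were at 0.846%, 1.14%, 1.04%, 1.49% and 1.49% of their endothelial-like levels. EGFL7, KDR and ESAM were at 0.608%, 0.614% and 1.62% of theirs. ATP5MC2 was also high in other somatic classes, with 1252 CPM in myoid-like and 801 in perivascular-like cells, and the part of somatic RNA in the difference was not tested. ATP5MC1, ATP5MC3 and CYC1 were at 8.67%, 6.29% and 20.7%. Endothelial markers summed to 4.85 CPM in control and 22.1 CPM in ZEA0.75 round spermatid-like cells, with 8 of 10 found in the control (EGFL7 and ESAM at 0) and 10 of 10 in the ZEA0.75 class. Peritubular myoid markers summed to 11.2 and 169.7 CPM, with 7 of 8 found in each (CNN1 at 0 in the control, DES in the ZEA0.75 class).

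In elongating spermatid-like cells 5 of 48 members were 2-fold higher in the ZEA0.75 library and 0 lower, beside 14.2% and 5.73% of 7378 genes. They were ATP5MC2 (log2 ratio 4.92), ATP5MC3 (log2 ratio 2.44), ATP5MC1 (log2 ratio 1.54), COX6B1 (log2 ratio 1.34) and CYC1 (log2 ratio 1.27), each under 200 UMIs in both sums together and named here because the count is small. ATP5MC2 had 10 UMIs in control and 52 in ZEA0.75 cells, or 0.726 and 21.9 CPM. With a minimum of 200 UMIs per gene 0 of 39 members passed 2-fold, beside 14.9% of all genes in either direction, and with every cell thinned to 500 UMIs 1 of 35 was higher and 2 were lower, beside 28.6%. Counting only genes whose higher class reached 25% of the gene's highest class level in its library left 0 of 25 members in elongating cells, beside 19.1%, and 6 of 39 in round cells, beside 30%. Endothelial markers summed to 5.01 and 37.6 CPM and myoid markers to 10.5 and 219 CPM in the 2 classes. Of 10 endothelial markers 7 were found in the control class (ESAM, TEK and EMCN at 0) and 8 in the ZEA0.75 class (ESAM and TEK at 0), and all 8 myoid markers were found in both. Their part in these ratios was not tested.

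Several members with high levels in spermatids differed by less than 2-fold between the libraries. NDUFB2 had log2 ratios of 0.12 (interval 0.10 to 0.14) in round and 0.43 (interval 0.39 to 0.47) in elongating cells, COX4I1 0.04 and 0.04, ATP5IF1 0.30 and 0.64, and COX6B2 0.22 (interval 0.18 to 0.27) and -0.36 (interval -0.45 to -0.27). COX6B2 thus was higher in round and lower in elongating cells of the ZEA0.75 library, each by less than 2-fold, and after the shift of all genes its ratio in round cells lies below 0. COX8A was lower in both, with log2 ratios of -0.77 (interval -0.96 to -0.59) and -0.38 (interval -0.74 to -0.04). UQCRC1 gave -0.58 and -0.65.

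Mitochondrially encoded genes gave 2 of 10 higher in round and 7 of 10 higher in elongating cells of the ZEA0.75 library, and 0 lower in either. ND2 was at 6.68 and 51.5 CPM in control and ZEA0.75 elongating cells (log2 ratio 2.95, interval 2.54 to 3.35) and CYTB at 30.3 and 110.1 CPM (log2 ratio 1.86, interval 1.64 to 2.09). Endothelial-like cells of that library held 1558 CPM of ND2 and 2682 CPM of CYTB. With 1 library per group, treatment, animal, tissue piece, depth and software version cannot be told apart.

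**Figure D5:**
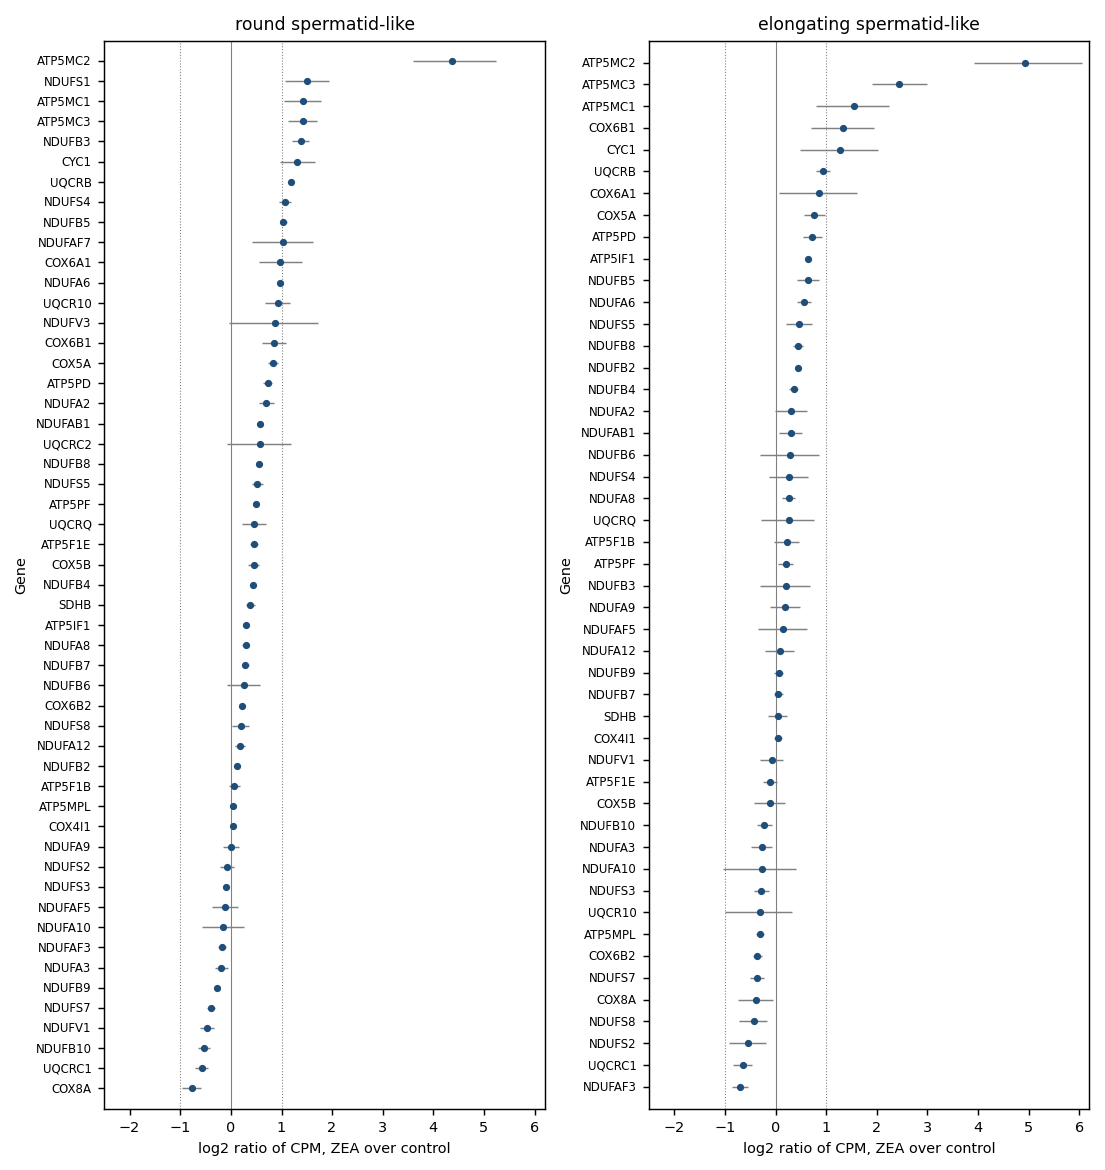
Log2 ratio of CPM, ZEA0.75 over control, for each member entered in round (left, 52 genes) and elongating (right, 48 genes) spermatid-like cells, sorted by ratio; bars are 95% intervals from counting, and dotted lines mark 2-fold. ATP5MC2 lies farthest right in both panels, at 4.36 and 4.92, and most members lie between the dotted lines.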

How the data were processed

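Single-cell RNA was measured with 10x 3' version 3 chemistry in 1 library per group, so no test between groups is possible. The authors deposited raw UMI counts per gene and barcode, made with Cell Ranger 3.1.0 and STAR per the submitters' processing notes; per the file headers, version 5.0.0 wrote the control table and version 3.1.0 the ZEA0.75 table. The sources used here do not state the genome build.

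Cells with at least 500 UMIs, 200 genes and at most 20% mitochondrially encoded UMIs were kept, 7009 of 7030 control and 8805 of 8809 ZEA0.75 barcodes. Scrublet (scanpy 1.11.5, Python 3.11.15) then removed 198 control and 1 ZEA0.75 doublets; with so few calls in the ZEA0.75 library, doublets may remain there. Cells were clustered by the Leiden method (resolution 1, 15 neighbours, 30 components, 2000 variable genes without the members, libraries not integrated). Clusters were named from marker lists, and the criteria for naming were written after the clusters had been seen: a score of at least 1, a lead of 0.2 over the next list, at least 3 enriched markers, and no conflict among the 10 leading genes. The 11 unnamed clusters entered no class.

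UMIs were summed per class. A gene entered a comparison when it reached 50 UMIs over the pair of classes, a count of 0 was set to 3, and 2-fold was the threshold for counting. Named are paralogs, the 3 highest members of each complex in the control library, per comparison up to 4 members at each end with at least 200 UMIs and a 2-fold difference, and up to 4 genes per pathway list by ratio; others were chosen after their values were seen. Members and lists were chosen with earlier results of these data known. The ratio step was tested on simulated data. Near-identical copies can divide reads, and the sources used here do not state whether counting used strand.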

Additional observations from a re-analysis of the deposited data

How the results depend on the processing

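The summed share of respiratory chain genes stayed higher in the ZEA0.75 library under all alternatives run, but its size moved. Scaling to the median of gene ratios was not run for this sum. The median log2 ratio of all genes was 0.30 in round and 0.19 in elongating cells, close to the ratios of the sums. In round spermatid-like cells the log2 ratio of 0.28 became 0.22 with each cell thinned to 500 UMIs, 0.22 with equal weight per cell, 0.30 in cells with at least 5000 UMIs, 0.13 with called doublets kept, 0.27 with members allowed among the variable genes, 0.23 with unnamed clusters counted in their best class and 0.13 against the control cluster lowest in TNP1. In elongating cells 0.19 became 0.32, 0.31, 0.17, 0.15 and 0.13 under the first 5 of these settings in that order and 0.16 under the last. With called doublets kept the clusters changed too. A cluster of 372 ZEA0.75 cells (median 9773.5 UMIs), with round spermatid as its best list, was unnamed and left out. The named ZEA0.75 round cluster then had a median of 1111 UMIs, against 2382 in cluster 15. The part of this change in the ratio was not tested. The count of members past 2-fold in round cells was 10 of 52, beside 31.7% of all genes in either direction. It became 6 of 39 under the free RNA rule (the higher class reaches 25% of the gene's highest level), beside 30%. With thinning it was 6 of 37, beside 23.5%. Against the control cluster lowest in TNP1 it was 4 of 51, beside 15.4%. In elongating cells the count of 5 became 0 with at least 200 UMIs per gene, 9 with no filter, 0 under the free RNA rule and 3 with thinning. Among deep cells (5000 UMIs or more) the count was 4 of 46, of which 3 were lower, beside 18.1% of all genes. Deep elongating cells numbered only 52 in the ZEA0.75 library and 952 in the control, also for the ratio of the sums and the COX6B2 share. The causes were not tested. The count across the control stages was 41 of 53, beside 78.8% of all genes past 2-fold in either direction. It ranged from 28 of 38, beside 77.4%, to 42 of 57, beside 75.8%, all within 1.5 times. The COX6B2 share moved to 96.2% and 98.9% with thinning in control round and elongating cells, and to 98.5% with thinning and 98.1% in deep cells in ZEA0.75 elongating cells. The settings with unnamed clusters, the TNP1 cluster and the COX6B2 shares were chosen after seeing the data. No paired analysis was possible because each group has 1 library; for the same reason no replicate could be left out.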
